A study of Mus musculus with 4 samples.

Results

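The genes described here are 40 interferon-stimulated genes, interferon regulatory factors, interferon receptors and nucleic acid sensors, chosen by name from the 55487 gene IDs of a raw count table. All 40 were in the table and all 40 passed the filter on low counts, among 19194 tested genes. The interferon-induced GTPases, the STAT factors and the PARPs were not among them. The cells were group 2 innate lymphoid cells (ILC2s), tissue lymphocytes that secrete IL-5 and IL-13, sorted from the mouse colon and kept in culture with the alarmins IL-25 and IL-33 beside IL-2 and IL-7. They were left as controls (n = 2) or exposed for 16 h to FK866 (n = 2), an inhibitor of NAMPT, the enzyme that recycles nicotinamide into NAD+. The cytokines were shared by both groups. Strain, sex, age, FK866 dose and the vehicle of the controls are not given in the labels, nor is the origin of the replicates. Each p-value therefore reflects the variation between libraries that may be technical replicates of 1 culture.

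Interferons are secreted warning signals. Type I interferons bind the receptor chains IFNAR1 and IFNAR2, and the kinases JAK1 and TYK2 then activate a complex that contains IRF9 and binds a promoter element called ISRE. Interferon-γ binds IFNGR1 and IFNGR2 and acts on another element, GAS. The induced genes encode proteins that sense or degrade viral RNA, stop translation or block viral assembly, and many of them are also transcribed at a low tonic level without infection. IRF7 amplifies the response and IRF2 can occupy the sites of IRF1 and repress them. Both types of interferon are known to restrain ILC2s.

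The FK866 libraries held less mRNA of 8 of the 40 genes and more of 3 (quasi-likelihood F-test of edgeR, p under 0.05 after Benjamini-Hochberg adjustment over all tested genes). The 8 that fell were the RNA-activated enzymes Oas1a and Oas3, the RNA-dependent kinase gene Eif2ak2 (PKR), the sensors Zbp1 and Ddx58 (RIG-I), the pro-apoptotic Xaf1, Ifi35 and the regulator Irf7. The 3 that rose were the regulator Irf2 and the receptor chains Ifnar1 and Ifngr1. Among all tested genes, 13.2% were called, 7.89% lower and 5.31% higher. The split of all calls was 1514 lower and 1020 higher, and 1377 and 1573 with the trend of fold change on transcript length and GC content removed, while for the 40 genes it was then 9 and 4. Without control replicate 1, 15 of the 40 genes were called lower, and without control replicate 2 or without FK866 replicate 2, 5 were called higher. Fewer cells of a type and less RNA per cell cannot be told apart in such bulk samples.

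The promoters of the called genes that hold an ISRE core are shown because that element is the binding site of the interferon-activated complex. The core was searched as GAAA, any 2 bases and GAAA again, on both strands of RefSeq windows (GRCm38.p6, 250 bases before to 50 after each annotated start). Of the 40 genes, 34 had a window. The 6 without a window, Dhx58, Oas2, Rtp4, Tmem173, Usp18 and the called gene Zbp1, were not searched. The stretches of Oas3 (chr5:120777685-120777774, minus strand), Oas1a (chr5:120907526-120907585, minus strand) and Irf2 (chr8:46739495-46739553, plus strand) lie before the start, and those of Eif2ak2 (chr17:78882535-78882564, minus strand) and Ddx58 (chr4:40239804-40239833, minus strand) lie at or just past it. They read 5′ to 3′ on the strand of the gene, with the core in capitals.
Oas3: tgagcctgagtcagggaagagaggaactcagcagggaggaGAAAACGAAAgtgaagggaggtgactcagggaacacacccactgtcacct
Oas1a: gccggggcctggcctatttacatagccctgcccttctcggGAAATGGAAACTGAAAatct
Eif2ak2: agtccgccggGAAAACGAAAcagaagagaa
Ddx58: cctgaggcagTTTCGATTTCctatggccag
Irf2: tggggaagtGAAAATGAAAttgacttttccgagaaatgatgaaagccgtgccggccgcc

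The first 4 belong to genes that fell and the last to a gene that rose. The core began 75 bases before the start in Oas3, 20 before in Oas1a, where 2 cores overlap, and 241 before in Irf2. It began 19 bases past the start in Eif2ak2 and 3 bases past it in Ddx58, in reverse orientation. In all, 13 of the 34 genes with a window held the core (38.2%), against 3.99% of all gene symbols with a window. They were Bst2, Ddx58, Ddx60, Eif2ak2, Ifih1, Ifit1, Ifit3, Irf2, Isg15, Oas1a, Oas3, Rsad2 and Trim30a. Of these 13 genes 4 were called lower, 1 higher and 8 were not called, with a median log2 fold change of -0.78. Of the 21 without the core, 3 were called lower and 2 higher, with a median of -0.21. These 21 include all 4 receptor chains, among them the 2 higher calls, and every regulatory factor but Irf2. The 2 sets thus differ in gene class as well as in the core, and a link between core and change was not tested. The GAS element, TTCNNNGAA, which reads the same on both strands, was found in another 13-gene set (38.2%, against 9.55% of all symbols) that shared Bst2, Eif2ak2, Irf2 and Oas1a with the first. The called genes Ifi35 and Ifnar1 also held it. These matches describe letters in a window and do not show binding.

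Levels are given as CPM, counts scaled to a common library size with TMM, and the order in each sentence is control replicates 1 and 2, then FK866 replicates 1 and 2. The 40 genes together made up 0.124% to 0.133% of each library's counts. Library totals ran from 27617750 to 37841233 counts. FK866 replicate 2 stood apart: 22461 gene IDs reached 10 counts there, and 17152 to 18667 elsewhere. Without it 8 of the 40 genes were called lower and 5 higher. Nampt itself stood at 71.0, 78.0, 64.6 and 60.9 CPM (log2 fold change -0.25 ± 0.14, SE, edgeR adjusted p = 0.301), which checks no label because FK866 acts on the protein.

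The libraries held the markers of the labelled cell type. The ILC2 list of 14 genes summed to 6751 and 6943 CPM in controls and 6476 and 5532 CPM in FK866 libraries, and Gata3 stood at 1082, 947, 842 and 699 CPM. Of the list, Rora was called higher and Icos, Id2 and Il13 lower. Interferon-stimulated genes are also abundant in macrophages, dendritic cells and B cells. The 9 macrophage and monocyte markers summed to 3.63 to 6.17 CPM in controls and 6.0 to 6.08 CPM in FK866 libraries, and the 6 B and plasma cell markers to 0.413 to 0.736 and 1.11 to 3.03 CPM. The 6 dendritic cell markers summed to 37.0 to 43.6 and 46.5 to 55.6 CPM, mostly Xcr1 and Zbtb46, and the other 4 were below 1 CPM in every library. Of these lists 5, 2 and 4 markers passed the filter and were tested, and none of those was called. The 6 NK cell and ILC1 markers summed to 8.04 to 10.03 and 3.89 to 8.94 CPM, the 7 T cell markers to 9.30 to 11.4 and 10.98 to 12.2 CPM, and the 6 mast cell and granulocyte markers to 1.04 to 1.07 and 0.111 to 1.09 CPM. The 7 epithelial markers summed to 42.6 to 56.1 and 28.2 to 41.3 CPM, mostly Epcam, with Krt8 at 0 counts throughout, and the 7 stromal and endothelial markers to 145.1 to 185.7 and 193.0 to 228.6 CPM, mostly Pecam1. The 3 ILC3 markers summed to 163.7 to 278.2 and 133.4 to 257.9 CPM, of which Il17f was called higher (9.06, 8.65, 37.6 and 51.8 CPM). The part of other cells in the results below was not tested.

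**Figure D1:**
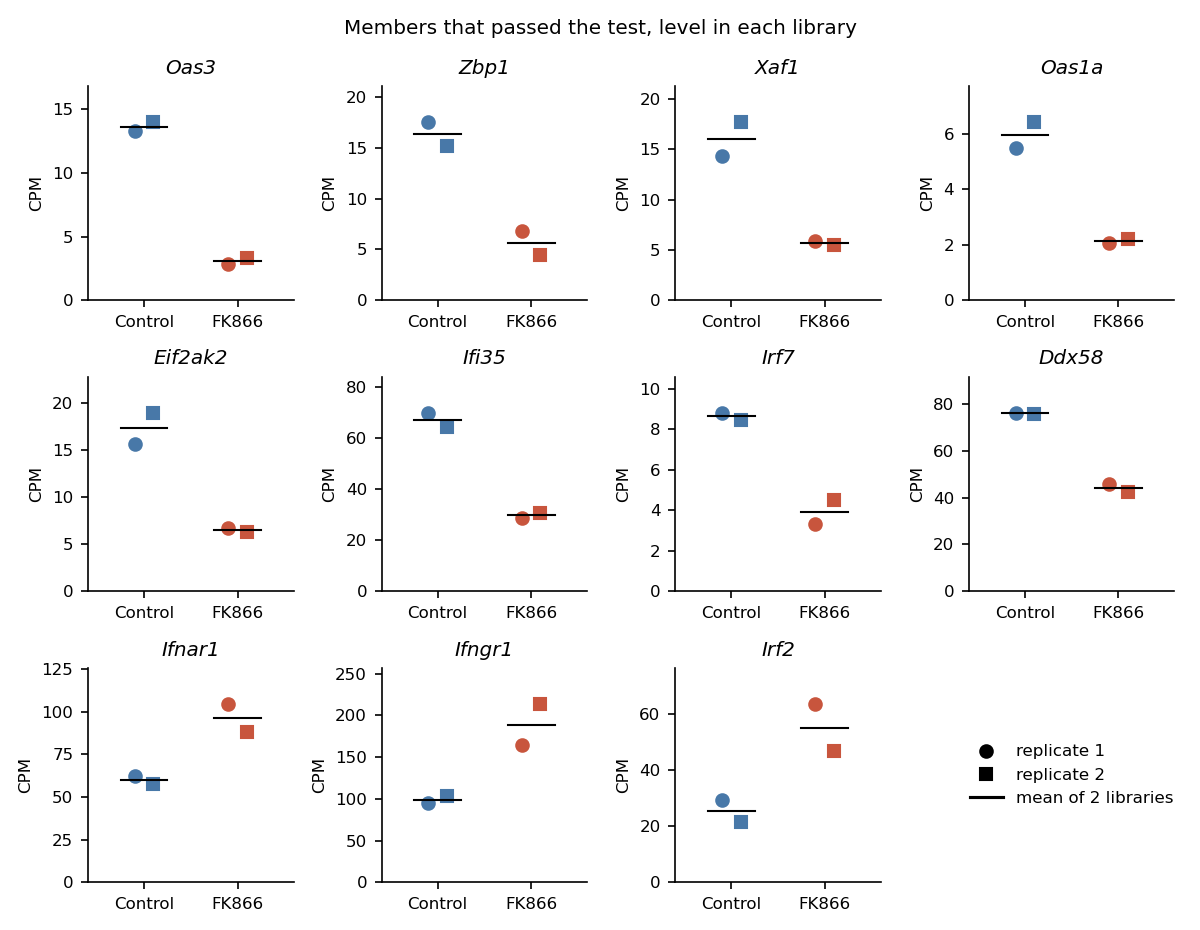
CPM (vertical axes, from 0) of the 11 genes that passed the test in the 2 control and the 2 FK866 libraries, with circles for replicate 1, squares for replicate 2 and a line at the mean of both. The genes were chosen by a test on these same libraries, and in each panel the groups do not overlap. Of all tested genes, 29.3% were without overlap downward and 28.4% upward. Oas3 lies between 13.2 and 14.0 CPM in controls against 2.86 and 3.35 CPM with FK866, and Irf2 between 21.5 and 29.6 CPM against 46.8 and 63.8 CPM.

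The OAS enzymes make 2′-5′ oligoadenylates when they meet double-stranded RNA, which switches on RNase L. Oas3 (chromosome 5, 120753098 to 120777661, minus strand, mm10) was the member with the largest called difference. It stood at 13.2, 14.0, 2.86 and 3.35 CPM, so both FK866 libraries lay far below both controls. The log2 fold change of -2.13 ± 0.26 (SE) had an adjusted p of 0.00271 in edgeR, and it passed in each of the 12 alternatives. Oas1a (chromosome 5, 120896256 to 120907521, minus strand) stood at 5.48, 6.44, 2.08 and 2.21 CPM, a log2 fold change of -1.47 ± 0.33 (adjusted p = 0.0232, edgeR). It passed in all 11 alternatives that tested it, since the stricter filter leaves it out.

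Oas2 lies next to Oas3 in a chromosome 5 stretch of 177.2 kb that also holds Oas1c, Oas1b and Oas1a. It had 1 and 3 counts in controls and 19 counts in each FK866 library, against 481 and 456 and then 77 and 114 counts for Oas3. It passed the filter only through the FK866 libraries, its edgeR adjusted p was 0.111, and a fold against so few counts depends on the fitting. Of the Oas1 copies, Oas1c fell from 4.49 and 3.40 to 0.593 and 0.147 CPM (log2 -3.44 ± 0.64, SE, edgeR adjusted p = 0.0116), and Oas1b stood at 2.81, 2.39, 0.816 and 1.21 CPM (adjusted p = 0.0986). Reads may be shared between Oas1a and these near copies, and 9.44% of the exon bases of Oas1c overlap another gene. At so low a level in the FK866 libraries, the fold of Oas1c also depends on the fitting. The other Oas1 copies held few counts, such as 19, 4, 0 and 2 for Oas1g. The OAS-like genes had low levels. Oasl1, a translational repressor of Irf7, stood at 0.606, 1.44, 3.56 and 1.91 CPM (log2 1.42 ± 0.58, adjusted p = 0.149). With 1 library left out, its log2 fold change ran from 0.81 (FK866 replicate 1 out) to 2.16 (control replicate 2 out). Oasl2 stood at 0.661, 1.53, 1.15 and 2.09 CPM, with overlapping groups.

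IFIT proteins bind foreign RNA ends and hinder translation. The 3 genes of this family, which lie within 99.3 kb on chromosome 19, were all below 5 CPM and none passed. Ifit1 stood at 0.716, 0.859, 4.52 and 1.41 CPM, with FK866 replicate 1 far above the other 3 libraries (log2 1.9 ± 0.62, SE, adjusted p = 0.0791). It was called higher with no filter, by DESeq2 and with a replicate block. Its log2 fold change was 0.75 without FK866 replicate 1 and 2.54 without FK866 replicate 2. The near copy Ifit3b of Ifit3 had 0, 7, 12 and 16 counts. Ifit2 stood at 3.55, 2.88, 1.33 and 1.59 CPM, both FK866 libraries below both controls (log2 -1.13 ± 0.42, adjusted p = 0.111). Ifit3 stood at 0.413, 0.368, 1.11 and 0.382 CPM, with overlapping groups.

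ISG15 is a ubiquitin-like protein. Herc6 attaches it to targets in mice and Usp18 removes it and also restrains type I interferon receptor signalling. None of the 3 genes passed. Usp18 stood at 5.53, 7.91, 4.04 and 3.62 CPM (log2 -0.81 ± 0.32, adjusted p = 0.135). Its log2 fold change was -1.15 without control replicate 1 and -0.53 without control replicate 2. Isg15 itself was at 1.40, 2.09, 1.19 and 1.24 CPM (adjusted p = 0.568), and Herc6 at 4.49, 6.84, 3.34 and 4.53 CPM with overlapping groups (adjusted p = 0.382).

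Of 13 further antiviral effectors, 3 fell and none rose, against 7.89% lower and 5.31% higher among all tested genes. Eif2ak2 (chromosome 17, 78852564 to 78882573, minus strand) encodes PKR, which phosphorylates eIF2α when it binds double-stranded RNA. It stood at 15.6, 18.9, 6.67 and 6.29 CPM, with a gap between the groups wider than the spread in either (log2 -1.41 ± 0.23, SE, adjusted p = 0.00758, edgeR). Xaf1 (chromosome 11, 72301629 to 72313733, plus strand), a partner of the apoptosis inhibitor XIAP, stood at 14.3, 17.7, 5.86 and 5.47 CPM (log2 -1.50 ± 0.24, adjusted p = 0.00721). Ifi35 (chromosome 11, 101448407 to 101458698, plus strand), a leucine zipper protein that pairs with NMI, stood at 70.0, 64.3, 28.8 and 30.8 CPM (log2 -1.17 ± 0.15, adjusted p = 0.00333), although an opposite-strand gene covers 16.8% of its exon bases. These 3 genes passed in each of the 12 alternatives. Nmi, the partner of IFI35, also fell (log2 -0.88, adjusted p = 0.0104), a call lost without FK866 replicate 2, and was named after its value was seen.

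Most of the other effectors had lower values in FK866 without passing. Trim30a, a TRIM protein that dampens NF-κB signalling, stood at 20.2, 26.6, 10.1 and 15.9 CPM (adjusted p = 0.0705), and its near copy Trim30d at 7.29, 5.09, 3.30 and 3.50 CPM (adjusted p = 0.122). Isg20, an RNA exonuclease, stood at 6.25, 7.67, 3.75 and 3.47 CPM (adjusted p = 0.0735). The helicase gene Ddx60 stood at 4.90, 9.88, 3.15 and 3.41 CPM (adjusted p = 0.0806), with control replicate 2 above the rest. Ddx60 and Trim30a were each called lower in 5 of the 12 alternatives and Isg20 in 2. Without control replicate 1 their log2 fold changes were -1.69 for Ddx60, -1.13 for Trim30a and -1.19 for Isg20. Leaving out control replicate 2 instead gave -0.58, -0.63 and -0.79 in the same order.

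Among the effectors that did not pass, 3 were above 40 CPM in every library. The surface tether Bst2 stood at 91.3, 74.4, 69.9 and 62.2 CPM (log2 -0.33 ± 0.16, adjusted p = 0.217). With 1 library left out, its log2 fold change ran from -0.51 (FK866 replicate 1 out) to -0.22 (FK866 replicate 2 out). The RNA editor Adar stood at 60.2, 51.8, 45.2 and 42.8 CPM (adjusted p = 0.182) and was called lower with the length and GC trend removed, with 16.8% of its exon bases shared with Chrnb2 on the other strand. The dNTPase gene Samhd1 stood at 56.3, 69.1, 50.1 and 60.3 CPM, with overlapping groups (adjusted p = 0.546). The chaperone gene Rtp4 stood at 1.73, 3.68, 0.964 and 1.18 CPM (adjusted p = 0.136). Its log2 fold change was -1.87 without control replicate 1 and -0.69 without control replicate 2. Viperin (Rsad2) and the nucleotide kinase gene Cmpk2, neighbours on chromosome 12, had values that pointed in opposite directions, 0.385, 0.460, 0.593 and 1.88 CPM against 2.15, 0.920, 0.297 and 0.882 CPM, and neither passed. Ifi44 was at 0.138, 0.460, 0.0742 and 1.26 CPM, the highest and the lowest value both in FK866 libraries.

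Sensors detect nucleic acid inside the cell. The list used here also holds Trim25, a ligase that acts on RIG-I, while the RNA-binding OAS genes and Eif2ak2 are listed above. All 6 genes of this list had both FK866 libraries below both controls, and 2 fell, against 7.89% called lower among all tested genes. Such a lack of overlap was seen downward in 29.3% and upward in 28.4% of all tested genes, and in 24 and 8 of the 40 genes. The 8 include Oas2, which passed the filter only through the FK866 libraries. Zbp1 (chromosome 2, 173206612 to 173218923, minus strand), which binds Z-form nucleic acid and can start necroptosis, stood at 17.5, 15.1, 6.86 and 4.5 CPM (log2 -1.53 ± 0.28, SE, adjusted p = 0.0101, edgeR). It passed in each of the 12 alternatives. Ddx58 (chromosome 4, 40203773 to 40239828, minus strand), which encodes the RNA sensor RIG-I, stood at 76.1, 75.6, 45.9 and 42.6 CPM (log2 -0.78 ± 0.14, adjusted p = 0.0106). The controls differed little, and the call was lost without FK866 replicate 2 (log2 -0.70, adjusted p = 0.0744).

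The sister sensor gene Ifih1 (MDA5) stood at 4.84, 9.54, 4.12 and 2.79 CPM (adjusted p = 0.12). Its log2 fold change was -1.57 without control replicate 1 and -0.49 without control replicate 2. Dhx58, which encodes the regulator LGP2 of RIG-I and MDA5, stood at 2.39, 4.26, 1.19 and 2.06 CPM (adjusted p = 0.204). Leaving out control replicate 1 gave a log2 fold change of -1.48, and leaving out control replicate 2 gave -0.55. Tmem173, which encodes the cyclic dinucleotide receptor STING, was the gene with the highest mean CPM of the 40 over the 4 libraries, at 228.2, 195.7, 184.2 and 160.6 CPM (log2 -0.30 ± 0.14, adjusted p = 0.212). Trim25, the ubiquitin ligase of RIG-I, stood at 52.7, 49.1, 43.7 and 44.1 CPM (adjusted p = 0.399).

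**Figure D2:**
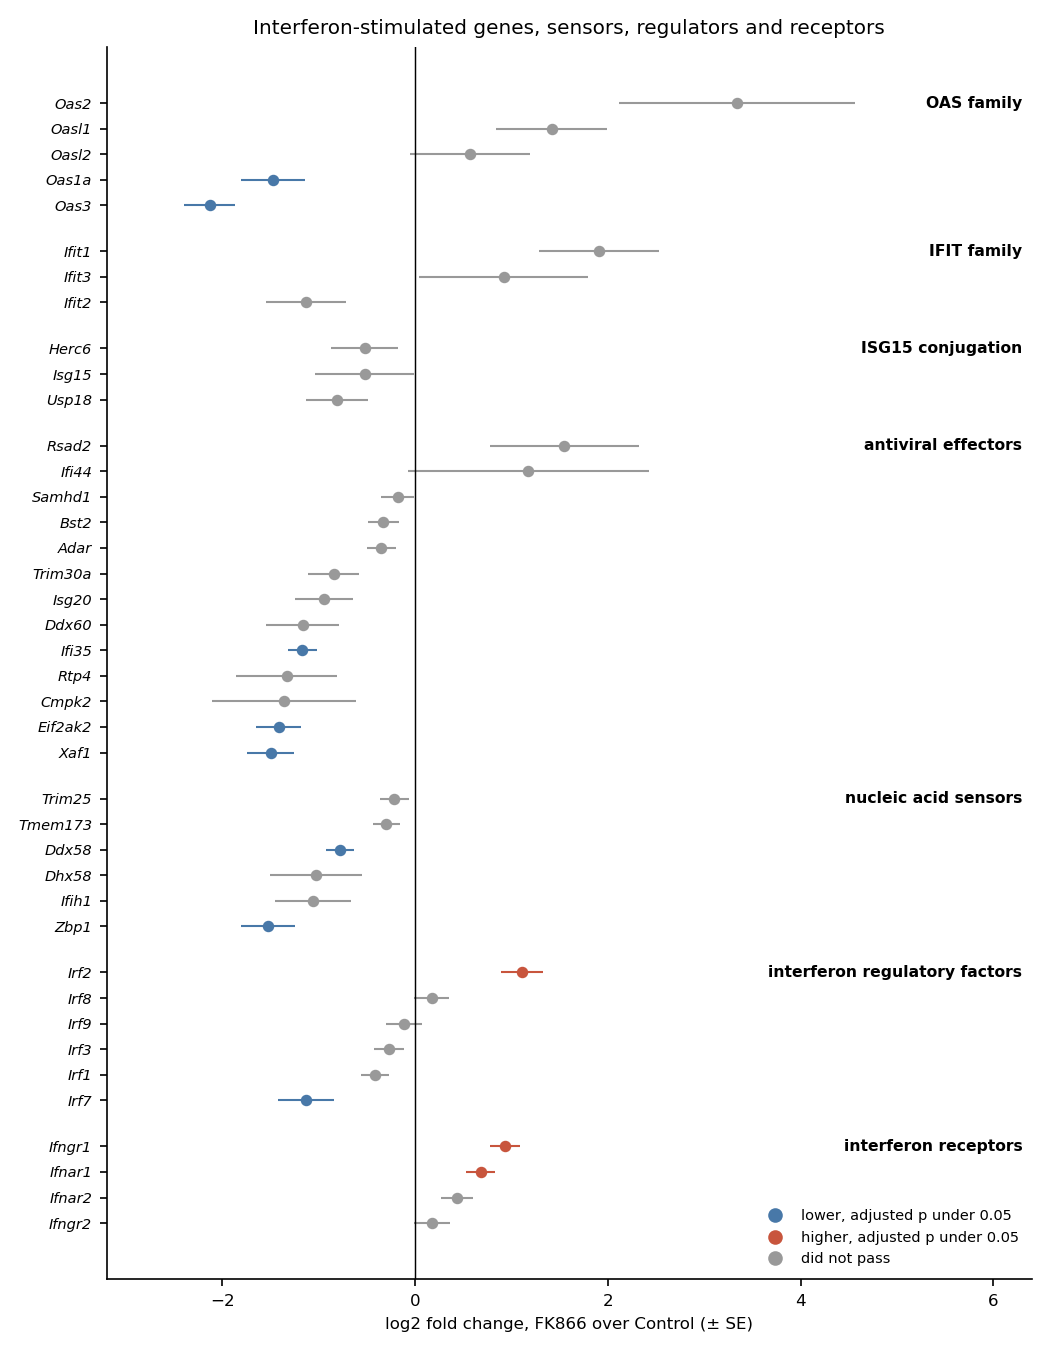
log2 fold change of FK866 over control (horizontal axis) with its SE for the 40 genes, grouped by role, in blue where called lower, red where called higher and grey where the test was not passed. The 6 genes of the sensor group all lie below 0, as did 48.5% of all tested genes. The 4 receptor chains all lie above 0, with Ifngr2 less than its SE from 0. The OAS and IFIT families have genes on both sides with wide SEs.

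The interferon regulatory factors moved in both directions. Irf2 (chromosome 8, 46739732 to 46847458, plus strand) stood at 29.6, 21.5, 63.8 and 46.8 CPM, both FK866 libraries above both controls (log2 1.11 ± 0.22, SE, adjusted p = 0.0139, edgeR). It was called higher in each of the 12 alternatives. Irf7 (chromosome 7, 141262706 to 141266481, minus strand) stood at 8.81, 8.47, 3.34 and 4.53 CPM (log2 -1.13 ± 0.29, adjusted p = 0.0371). That call was lost without FK866 replicate 1 (log2 -1.03, adjusted p = 0.108). It also narrowly missed when libraries were scaled by totals alone (adjusted p = 0.0515) or after trend removal (adjusted p = 0.0564).

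Irf1, the activator whose sites IRF2 can occupy, stood at 163.0, 136.6, 117.7 and 106.8 CPM (log2 -0.42 ± 0.14, adjusted p = 0.0944). With 1 library left out, its log2 fold change ran from -0.58 (FK866 replicate 1 out) to -0.33 (FK866 replicate 2 out). After trend removal it was smaller, at -0.18. Irf3, the factor downstream of the sensors, stood at 78.3, 81.3, 73.8 and 58.4 CPM (adjusted p = 0.309). Irf9, the DNA-binding part of the type I complex, stood at 32.5, 42.7, 33.7 and 35.8 CPM, and Irf8, best known from myeloid and B cells, at 36.9, 34.8, 45.6 and 35.2 CPM. The groups overlapped for both genes, and neither passed (adjusted p = 0.762 and 0.604).

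All 4 receptor chains had fold changes above 0 and 2 rose, against 5.31% called higher among all tested genes. Ifngr1 (chromosome 10, 19591949 to 19610229, plus strand), the ligand-binding chain of the interferon-γ receptor, stood at 95.3, 102.9, 164.0 and 213.8 CPM (log2 0.93 ± 0.16, SE, adjusted p = 0.00822, edgeR). It was called higher in each of the 12 alternatives. Ifnar1 (chromosome 16, 91485238 to 91507441, plus strand), a chain of the type I receptor, stood at 62.5, 57.7, 104.7 and 88.0 CPM (log2 0.68 ± 0.15, adjusted p = 0.0212). That call was lost without FK866 replicate 1 (log2 0.45, adjusted p = 0.241) and with no filter (adjusted p = 0.0501). Ifnar1 lies between Ifnar2 and Ifngr2 in a stretch of 192.8 kb on chromosome 16. Ifnar2, the other type I chain, stood at 39.5, 32.9, 50.5 and 47.2 CPM, without overlap (adjusted p = 0.125), and was called higher with the stricter filter and after trend removal, with 9.46% of its exon bases in another annotated gene. Ifngr2, the signalling chain for interferon-γ, stood at 73.2, 53.0, 76.6 and 65.9 CPM with overlapping groups (log2 0.18 ± 0.18, adjusted p = 0.601). Its log2 fold change was -0.039 without control replicate 2 and -0.033 without FK866 replicate 1. Whether Ifnar1 and Ifnar2 differ in their change was not tested.

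**Figure D3:**
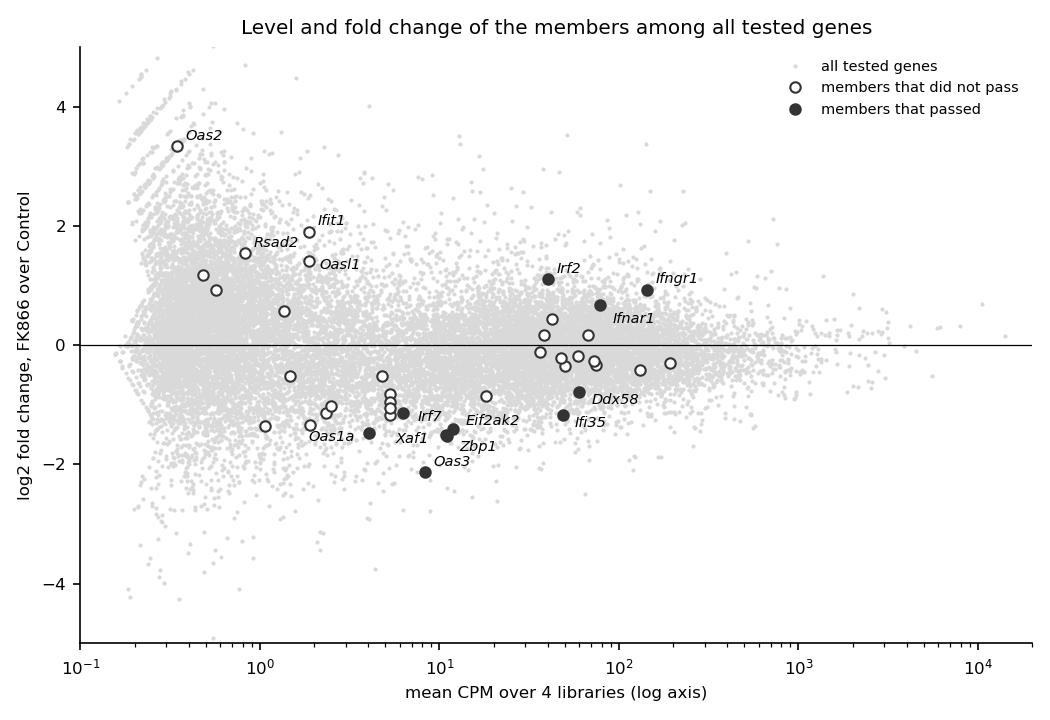
log2 fold change of FK866 over control (vertical axis) against mean CPM over the 4 libraries (log axis) for all tested genes (grey) and the 40 interferon genes, filled where called. The 11 called genes have a mean of at least 4.05 CPM, and 49 tested genes lie beyond the limits of 5 on the vertical axis and are not drawn.

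Level and precision went together. Of the 40 genes, 12 had a mean under 3 CPM, and these had a median SE of 0.62 on the log2 scale and no call, 5 with a fold change below 0 and 7 above. The 7 include Oas2, which passed the filter only through the FK866 libraries. The other 28 had a median SE of 0.18, with 8 lower and 3 higher calls and 22 fold changes below 0. Over all 40 genes the median log2 fold change was -0.38, against 0.03 over all tested genes, and 27 of 40 (67.5%) were below 0, against 48.5% of all tested genes. Per kilobase of the longest annotated transcript, Bst2 stood highest in controls (104.6 CPM per kb), followed by Tmem173 (92.2), Irf1 (70.1) and Ifi35 (49.3). Oas3 went from 2.88 to 0.658 CPM per kb and Ifngr1 from 46.9 to 89.4 CPM per kb. Control replicate 2 was above control replicate 1 in 23 of the 40 genes (57.5%), against 51.5% of all tested genes, and in 20 of the 30 that are neither regulatory factors nor receptors, as in Ifih1, Ddx60, Dhx58 and Rtp4. The same comparison between the FK866 libraries gave 19 of 40 (47.5%) and 16 of 30, against 47.0% of all tested genes.

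The ligands themselves were almost undetected. The 21 interferon genes of types I, II and III together held 41 and 33 counts in controls and 21 and 66 counts in FK866 libraries, and none passed the filter. Ifnb1 had 0 counts in both controls, which allows up to 0.0826 and 0.092 CPM by counting error alone (3 counts per library), and 2 and 12 counts with FK866. Ifng had 35, 5, 8 and 2 counts. No difference in a ligand was tested.

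Of 60 other interferon-induced genes, 57 were tested, of which 12 fell and 2 rose. Among all tested genes, 7.89% were called lower and 5.31% higher. The restriction factor Apobec3 stood at 337.3, 356.1, 160.6 and 160.8 CPM (log2 -1.11 ± 0.12, SE, edgeR adjusted p = 0.00181), with FK866 libraries almost equal. The mitochondrial protein gene Ifi27 stood at 47.4, 41.4, 19.4 and 18.4 CPM (log2 -1.23, adjusted p = 0.0044), and the MAVS partner gene Trim14 at 48.5, 43.3, 20.8 and 19.9 CPM (log2 -1.17, adjusted p = 0.00476), with 38.0% of its exon bases in other genes. Cd274, which encodes the checkpoint ligand PD-L1, rose from 12.7 and 13.3 to 44.2 and 42.2 CPM (log2 1.73 ± 0.17, adjusted p = 0.00127). These 4 were called in each of the 12 alternatives. The median of the 57 genes was -0.45.

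Of 13 tested adaptors, kinases and further sensors, 2 fell and 1 rose, against 7.89% lower and 5.31% higher among all tested genes. Myd88, the adaptor of most Toll-like receptors and of the IL-33 receptor, stood at 135.5, 158.8, 74.4 and 83.6 CPM (log2 -0.90, edgeR adjusted p = 0.00714). Rnf135, a ubiquitin ligase of RIG-I, stood at 14.2, 14.3, 7.56 and 7.91 CPM (log2 -0.88, adjusted p = 0.0363), a call lost without either FK866 library and after trend removal. The DNA sensor gene Aim2 stood at 17.2, 14.7, 25.1 and 29.2 CPM (log2 0.77, adjusted p = 0.0362), a call lost without control replicate 2, without either FK866 library and with no filter. Among the 10 genes of receptor signalling, Socs1, Socs3 and Ptpn6 fell, against 7.89% called lower among all tested genes. Of the 10, 4 had fold changes below 0 and 6 above, with a median log2 fold change of 0.13. Socs1 stood at 302.6, 238.6, 87.2 and 60.8 CPM and was called in each of the 12 alternatives. Socs3 (log2 -1.10, adjusted p = 0.0228) and the phosphatase gene Ptpn6 (log2 -0.70, adjusted p = 0.0181) lost their calls after trend removal.

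**Figure D4:**
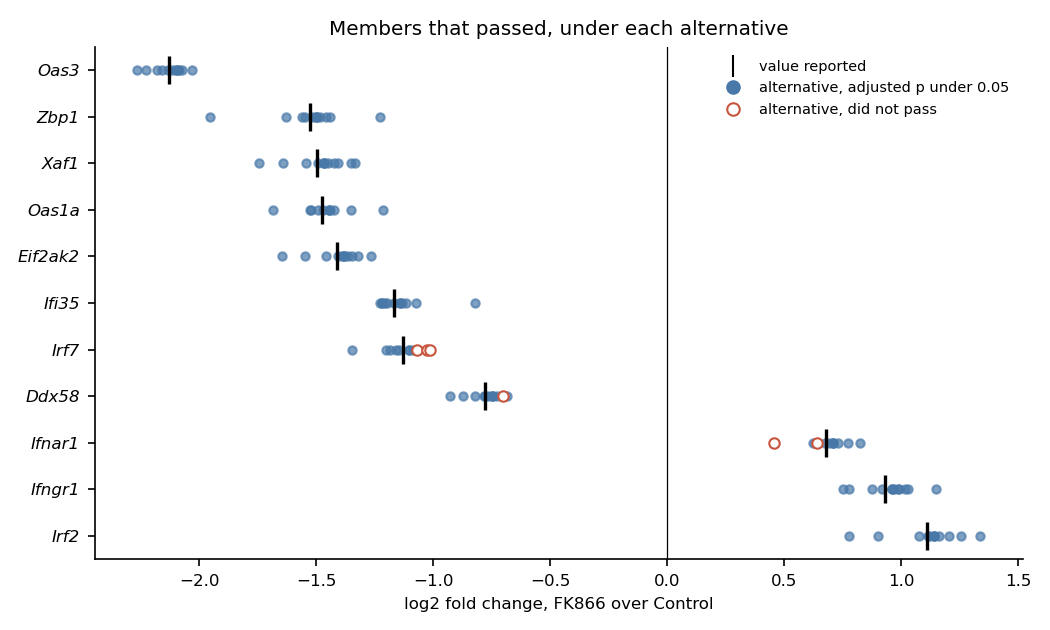
log2 fold change of FK866 over control (horizontal axis) of the 11 called genes under each alternative of scaling, test, filter, left-out library, replicate block and trend removal, filled where the adjusted p was under 0.05 and open where it was not. The black bars are the reported values. No gene crosses 0, and open points occur for Irf7, Ddx58 and Ifnar1.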

How the data were processed

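Per the labels' protocols, total RNA of 4 samples of colon ILC2s was turned into cDNA (SMART-Seq HT) and paired-end Nextera XT libraries, a chemistry that does not mark strand. Reads were handled with cutadapt 1.9 and HISAT2 2.2.1 on build mm10, per the submitters' processing notes. The read counter, its annotation, strand setting and treatment of multiply mapped reads were not given in the sources used here. The authors deposited raw counts per Ensembl gene ID, a unit read from the values. Symbols, positions, lengths and exon overlaps came from GENCODE M21 (GRCm38), which named 55227 of 55487 IDs, with Mb21d1 read as Cgas. Promoter windows came from RefSeq (GRCm38.p6).

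Groups and replicates came from the titles. The table was fitted with edgeR 4.0.16 in R 4.3.3 (filterByExpr, minimum count 10, minimum total 15, TMM, glmQLFit, glmQLFTest, two-sided, treatment as the only term), with Benjamini-Hochberg adjustment over 19194 genes. Each SE was taken as |log2 fold change| over the root of the F statistic. The alternatives were 3 other scalings, DESeq2 1.42.0, no filter, a mean log2 CPM of at least 2, each library left out, a replicate block, and offsets (mgcv 1.9.3) that remove a trend on length and GC. The fit was also run on simulated counts, drawn independently for each library, as a check of the code. No result here rests on that run. Counts of the 2 control and of the 2 FK866 libraries were further apart than sampling noise (chi-square per degree of freedom 35.8 and 19.0), so none was merged.

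Named were all 40 genes, Nampt, near copies that hold counts, up to 4 called genes per pathway list by adjusted p (else the 2 with the highest mean CPM), up to 3 abundant markers per cell type, and promoters of called genes with the ISRE core. Nmi and the called ILC2 markers were named after their values were seen. The 40 genes and all lists were chosen with earlier results of these data known. A result on 1 gene of receptor signalling is not reported here.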

Additional observations from a re-analysis of the deposited data

How the results depend on the processing

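The 8 lower and 3 higher calls among the 40 genes became 16 and 6 with a replicate block, while those over all genes went from 1514 and 1020 to 3059 and 2197. The block added the lower calls of Ddx60, Ifih1, Ifit2, Irf1, Isg20, Tmem173, Trim30a and Usp18 and the higher calls of Ifit1, Ifnar2 and Oasl1. The calls among the 40 genes were between 8 and 15 lower and between 2 and 5 higher when a library was left out. Among the other interferon-pathway genes, 17 lower and 3 higher calls became 34 and 6 with the replicate block, 15 to 30 lower and 1 to 5 higher without a library, and 6 higher with the stricter filter, where higher calls over all genes were 1748. Labels do not say that equal replicate numbers share a culture or day. Deviations of same-numbered libraries correlated at 0.23 across genes, over 2 pairs only. Over all genes, lower calls were 2462 without control replicate 1 and 828 without FK866 replicate 2, and higher calls 661 without FK866 replicate 1. The 11 called genes kept their direction in every alternative that tested them. Genes that were not called changed sign as follows. Bst2 was at 0.053 with the length and GC trend removed. Without 1 library, Oasl2 ranged from -0.014 to 1.30, Ifit3 from -0.13 to 1.52, Ifi44 from -1.92 to 2.28, Irf8 from -0.12 to 0.37, Irf9 from -0.40 to 0.098 and Ifngr2 from -0.039 to 0.32. Trend removal also brought Irf1 from -0.42 to -0.18, Tmem173 from -0.30 to -0.10, Irf3 from -0.27 to -0.038 and Isg15 from -0.52 to -0.13. Of the uncalled genes below 0, Adar, Ddx60, Herc6, Ifih1 and Trim25 instead moved further below 0. The cause was not tested. Where a library is left out, the lone sample of its group is assumed to vary like the other group. The 12 genes under 3 CPM had a median SE of 0.62 in the reported fit, and the part of depth in this was not tested.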
